A study of Mus musculus with 15 samples.

Results

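Fibroblast growth factor (FGF) receptors are tyrosine kinases at the cell surface that bind FGF together with heparan sulfate chains and signal through the RAS-RAF-MEK-ERK kinase cascade. Active ERK switches on the ETS transcription factors of the PEA3 family and a set of feedback inhibitors, the Sprouty, Spred and dual-specificity phosphatase proteins, which act back on the cascade, so that their transcripts are widely used as readouts of its activity. In the eye lens, FGF supports the proliferation of epithelial cells and, at higher doses, their differentiation into fiber cells, and the receptors and their feedback inhibitors are both needed for a normal lens.

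A list of 10 such genes was followed here. It held the receptors *Fgfr1* and *Fgfr2*, the transcription factors *Etv4* and *Etv5*, the Sprouty genes *Spry1*, *Spry2* and *Spry4*, the Sprouty-related *Spred1*, and the phosphatases *Dusp4* and *Dusp6*. The genes were chosen by name and then selected on the presence of a value in both expression tables of the series. This left 9 of the 10, among the 11041 genes that the tables share. *Spry4* was matched in the culture table alone, and it was not analysed in the spheroid regions. The tables hold 11677 genes for the cultures and 11299 for the regions, the authors having removed genes with low CPM (reads scaled to the size of the library), so each gene kept had passed that filter in both. The list was drawn up with earlier results of these samples known. Its fold changes and p-values are therefore given as a description of these genes, and they are not independent evidence of a direction.

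The series holds 15 RNA samples of 21EM15, an established mouse lens epithelial line that the labels call wild type, sequenced from the 3′ ends of transcripts. There were 4 samples of 2D cultures and 4 samples of 3D spheroids. A 2D sample was a dish grown to 80% confluence, and a 3D sample was a pool of 60 spheroids grown for 10 days in non-adherent wells seeded with 10000 cells each. The medium contained 10% serum, and no FGF or inhibitor was compared. Spheroid regions were cut by laser microdissection, each sample from a pool of 120 spheroids, and 4 internal and 3 external samples are used here. One more external sample, which the study removed because its expression set it apart from the others, was not analysed here, so the spread of the external group is that of the samples that were kept. RNA of the cultures and of the regions was extracted with different kits, and the tables were scaled separately, so comparisons were made within a table only. Within a group, each replicate was thus its own dish or its own pool of spheroids, all from 1 cell line. The p-values measure the spread between such dishes and pools. Whether an internal and an external sample of the same number were cut from the same pool is not stated in the sources used here.

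Between 7305053 and 9362587 reads were counted per culture sample and between 4044230 and 11702504 per region sample. A count of 3 reads, taken as the smallest signal that the depth can show, corresponded to 0.312 to 0.409 CPM in the cultures and 0.248 to 0.802 CPM in the regions. These limits cover counting error only. In the lens epithelial marker list, *Pax6* and *Six3* were measured in every sample, and the other 4 of the 6 listed markers (*Foxe3*, *Cdh1*, *Pitx3* and *Sox2*) were not matched in either table. None of the 4 endothelial markers was matched, and the macrophage markers summed to between 0.383 and 1.64 CPM in the cultures and between 0.165 and 10 CPM in the regions. Of the 6 fibroblast markers, 5 were matched in the cultures, where they summed to 70.1 to 227 CPM in 2D and 448 to 700 CPM in 3D. Of the 17 fiber markers, 2 were matched in the cultures and 4 in the regions.

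The promoters of the genes that passed a test below, where a RefSeq (GRCm38.p6) window was available here, are shown to let the reader see the sequence from which they start. Windows of 300 bases, from 250 before to 50 after an annotated start, were found for 6 of the 9 genes, 7 windows in all. No window was available here for *Etv4*, *Dusp4* and *Fgfr1*. RefSeq and GENCODE give the same start for *Spry1* and different ones for *Etv5* and *Spred1*. The stretches printed here lie before whichever start comes first, 5′ to 3′ on the strand of the gene, for *Etv5* (chr16:22439720-22439820, minus strand), *Spry1* (chr3:37639697-37639946, plus strand) and *Spred1* (chr2:117120821-117121070, plus strand). Capitals mark the CCAAT box (CCAAT) and the GC box (GGGCGG), read on both strands.
Etv5: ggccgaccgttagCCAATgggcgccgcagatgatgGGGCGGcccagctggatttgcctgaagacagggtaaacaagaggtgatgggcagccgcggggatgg
Spry1: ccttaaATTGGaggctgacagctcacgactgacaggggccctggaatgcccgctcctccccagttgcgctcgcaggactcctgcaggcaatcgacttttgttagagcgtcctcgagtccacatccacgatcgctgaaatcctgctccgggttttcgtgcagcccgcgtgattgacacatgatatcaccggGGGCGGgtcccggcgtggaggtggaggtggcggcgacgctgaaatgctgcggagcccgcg
Spred1: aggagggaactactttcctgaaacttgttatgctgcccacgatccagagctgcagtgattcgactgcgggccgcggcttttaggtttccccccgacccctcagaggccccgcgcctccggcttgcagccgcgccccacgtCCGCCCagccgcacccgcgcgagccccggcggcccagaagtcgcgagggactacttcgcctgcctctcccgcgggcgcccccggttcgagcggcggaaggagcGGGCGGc

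These are CpG-rich starts: the 300-base windows held 37 CpG dinucleotides for *Etv5* (the window that holds the stretch shown), 29 for *Spry1* and 40 for *Spred1*, at 74.0%, 64.3% and 72.3% G and C. Across the windows, a CCAAT box was found for 3 of the 6 genes and a GC box for 3 of the 6. These motifs are common, being present in 37.4% and 35.7% of 32851 mouse windows of the same length. The letters of an ETS core (CCGGAA, both strands), the kind of site that *Etv4* and *Etv5* proteins bind, occurred in 14.9% of all windows and, among the 6 genes, in that of *Spry2* alone. There they start 34 bases after the annotated start, in the stretch chr14:105896770-105896799 (minus strand), with the motif in capitals.
Spry2: gaggtcatctatcCCGGAAtccgggagggt

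An AP-1 site (TGANTCA), present in 7.81% of all windows, and a CRE (TGACGTCA), present in 1.79%, were not found in the windows of the 6 genes. An E-box (CACGTG), present in 7.15% of all windows, was found in that of *Fgfr2* alone. A match describes the letters only, and a window without one says nothing about a factor or about sites elsewhere.

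The first comparison asks how growth as spheroids rather than on a flat dish relates to the expression of these genes. In the 3D samples, *Fgfr1* was 1.64-fold higher, *Spry1* 3.22-fold higher and *Spred1* 1.35-fold higher than in 2D, and *Dusp4* was 2.08-fold lower, each at an adjusted p under 0.05 (limma, Benjamini-Hochberg adjustment over all 11677 genes). *Etv4* and *Etv5* were within 1.11-fold of their 2D level. The plot of CPM by culture sample shows these values, and that of fold changes shows their intervals.

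**Figure D1:**
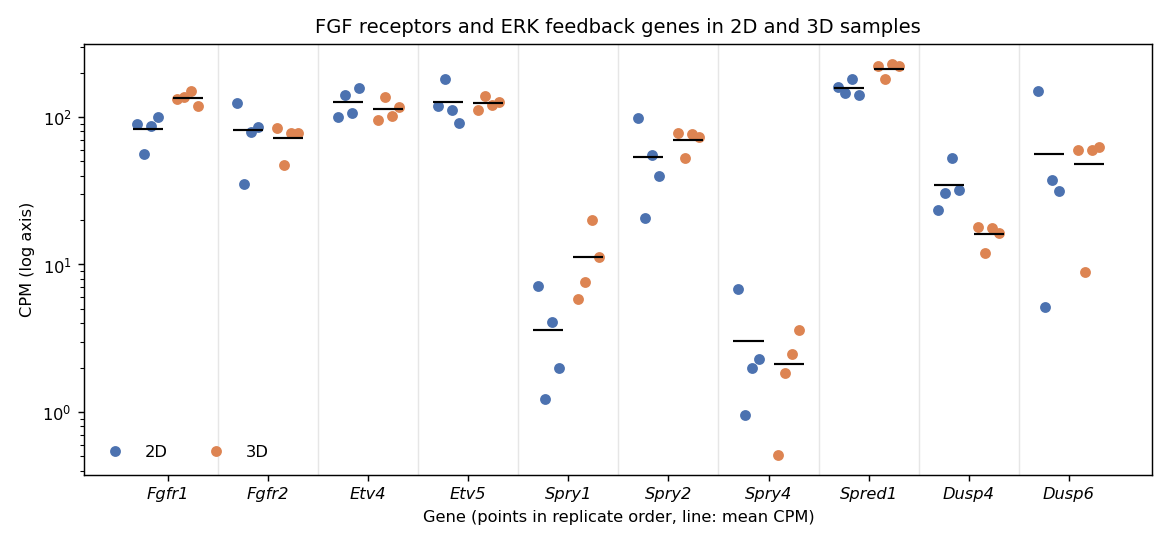
CPM (log axis) of the 10 listed genes in the 4 2D (blue) and 4 3D (orange) samples, with points in replicate order and a line at the mean CPM. The 3D points of Fgfr1 all lie above the 2D points and those of Dusp4 all lie below, whereas Dusp6 spans 5.19 to 150 CPM in 2D.

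*Fgfr1* (chromosome 8, 25513654 to 25575718 on GRCm38) encodes an FGF receptor expressed in both epithelial and fiber cells of the lens. It had 90.2, 55.7, 86.4 and 100 CPM in the 2D replicates 1 to 4 and 132, 136, 150 and 119 CPM in the 3D replicates. Every 3D sample was above every 2D sample. On the log2 scale, 3D differed from 2D by 0.72 ± 0.18 (SE, 95% confidence interval 0.32 to 1.12), with an adjusted p of 0.0213 in limma. The adjusted p was 0.052 when the 3D replicate 1 was left out, 0.0686 without the 3D replicate 3, and between 0.0151 and 0.0473 without each of the others.

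*Fgfr2* (chromosome 7, 130162451 to 133123350) encodes the other receptor of the list. GENCODE gives it a long transcript whose exons share bases with *Ctbp2* on the same strand. Whether the shared bases lie where reads from 3′ ends fall was not examined, so the effect on the *Fgfr2* reads is not known here. Its level was 125, 35.1, 78.7 and 85.3 CPM in 2D and 84.0, 47.0, 78.4 and 77.3 CPM in 3D. The groups overlapped, and the lowest sample of each group was the replicate numbered 2. Its log2 fold change of -0.08 had an interval of -0.83 to 0.68 (adjusted p = 0.897, limma), which spans both directions.

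The PEA3 factors, which ERK induces and which carry part of the transcriptional response to FGF, showed levels that the cultures did not separate. *Etv4* (chromosome 11, 101769742 to 101785371) had 100, 140, 107 and 156 CPM in 2D and 95.3, 136, 102 and 116 CPM in 3D. *Etv5* (chromosome 16, 22381309 to 22439719) had 118, 181, 112 and 91.5 CPM in 2D and 112, 138, 120 and 127 CPM in 3D. In both genes the 3D values lay within the range of the 2D values or close to it. Fold changes on the log2 scale were -0.15 (interval -0.54 to 0.23, adjusted p = 0.578) for *Etv4* and 0.03 (interval -0.39 to 0.45, adjusted p = 0.931) for *Etv5* in limma.

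The Sprouty proteins hold back receptor tyrosine kinase signals at the level of RAS and RAF. *Spry1* (chromosome 3, 37639947 to 37644598) had 7.12, 1.23, 4.10 and 1.98 CPM in 2D and 5.87, 7.65, 20 and 11.3 CPM in 3D. These levels rest on 9 to 68 reads in 2D and 46 to 154 in 3D. The groups overlapped through the 2D replicate 1, which was above the 3D replicate 1. A log2 fold change of 1.69 ± 0.53 resulted (SE; interval 0.53 to 2.85; adjusted p = 0.0472, limma). It passed the 0.05 threshold in 1 of the 8 fits that left out a sample, that without the 2D replicate 1 (adjusted p = 0.0183). In the others it was 0.0717, 0.0607 and 0.118 without the 2D replicates 2, 3 and 4, and 0.0528, 0.0679, 0.138 and 0.115 without the 3D replicates 1 to 4. With library sizes scaled by their totals alone it was 0.0513.

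*Spry2* (chromosome 14, 105891947 to 105896819) had 98.0, 20.5, 55.5 and 39.8 CPM in 2D and 78.1, 52.8, 76.5 and 73.1 CPM in 3D. The 2D samples lay on both sides of the 3D samples, and the replicate numbered 2 was the lowest of each group. The difference was 0.59 on the log2 scale, with an interval of -0.25 to 1.44 (adjusted p = 0.305, limma). *Spry4*, the listed gene matched in the culture table alone, was measured by 4 to 65 reads, at 6.81, 0.955, 1.99 and 2.29 CPM in 2D and 0.51, 1.85, 2.47 and 3.59 CPM in 3D. Its interval of -1.77 to 1.0 on the log2 scale (adjusted p = 0.702, limma) allows a change of either sign.

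*Spred1* (chromosome 2, 117121374 to 117182279) encodes a Sprouty-related inhibitor that recruits neurofibromin to RAS. It had 160, 145, 182 and 141 CPM in 2D and 220, 180, 230 and 220 CPM in 3D. The groups overlapped at 1 point, the 3D replicate 2 being just below the 2D replicate 3. The difference was 0.44 ± 0.13 on the log2 scale (SE; interval 0.15 to 0.73; adjusted p = 0.0416, limma). The adjusted p stayed under 0.05 without the 2D replicate 3 (0.0416) and the 3D replicate 2 (0.0325). It was 0.0572, 0.0614 and 0.0998 without the 2D replicates 1, 2 and 4, and 0.101, 0.117 and 0.106 without the 3D replicates 1, 3 and 4. With totals-only scaling it was 0.0583.

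The dual-specificity phosphatases remove phosphate from the MAP kinases themselves, *Dusp6* in the cytoplasm with a preference for ERK and *Dusp4* in the nucleus. *Dusp4* (chromosome 8, 34807297 to 34819894) had 23.4, 30.7, 52.9 and 32.2 CPM in 2D and 18, 12, 17.8 and 16.4 CPM in 3D. The 3D samples were all below the 2D samples. In limma the log2 fold change was -1.06 ± 0.25 (SE; interval -1.62 to -0.50; adjusted p = 0.0168). The adjusted p was between 0.0097 and 0.0464 when each sample was left out, the lowest being that without the 2D replicate 1, when the gene also passed the stricter rule given below.

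*Dusp6* (chromosome 10, 99263231 to 99267489) had 150, 5.19, 37.4 and 31.5 CPM in 2D and 59.3, 8.89, 60.1 and 62.6 CPM in 3D. The replicate numbered 2 was again the lowest of each group, and the 2D replicate 1 was the highest of all. The SD among the 2D samples was 1.96 on the log2 scale, larger than in 98.9% of all genes. A log2 fold change of 0.27 had an interval of -1.74 to 2.28 (adjusted p = 0.862, limma), and it was -0.57 without the 2D replicate 2.

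A gene was called when its adjusted p was under 0.01 and its level differed by more than 2-fold. Between 3D and 2D none of the 9 genes was called, against 4.43% of all genes (2.92% higher and 1.51% lower in 3D). At an unadjusted p under 0.05 there were 4 of the 9 in limma, beside 33.7% of all genes, and voom, a weighted limma fit on the recovered read counts, called 0. At an adjusted p under 0.05, which 19.0% of all genes passed, 3 rose (9.74% of all genes did) and 1 fell (9.25%), and 2 of the 9 did not overlap between groups, like 24.0% of all genes. The median log2 fold change of the 9 genes was 0.27, beside -0.03 over all genes. Of the 10 listed genes, 6 (*Spry1*, *Spry2*, *Spry4*, *Dusp6*, *Fgfr1* and *Fgfr2*) had their lowest 2D value in the replicate 2, where 30.8% of all genes had theirs, and 5 had their lowest 3D value in the 3D replicate 2 (28.8% of all genes). Without the samples numbered 2, a choice made after seeing the data, *Fgfr1*, *Spred1* and *Dusp4* kept an adjusted p of 0.029, 0.0357 and 0.0364, and that of *Spry1* was 0.0802.

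The proliferation markers moved with the culture condition. Of 8 such genes, 5 were called lower in 3D. Their median was -1.32 on the log2 scale, and they summed to 627 to 742 CPM in 3D and 1240 to 2181 CPM in 2D. Of the 5 fibroblast markers tested, *Dcn* and *Col3a1* were called higher in 3D and 3 did not pass the test. Of these, *Col1a2* had 0.247 to 0.743 CPM in 3D and 0.955 to 2.71 CPM in 2D, without overlap (adjusted p = 0.0574, limma). Both fiber markers measured, *Prox1* and *Maf*, were higher in every 3D sample than in any 2D sample, summing to 145 to 223 CPM against 46.7 to 87.1 CPM, with *Maf* at an adjusted p of 0.0189 and *Prox1* at 0.147 in limma. The epithelial markers *Pax6* and *Six3* were higher in 3D as well (adjusted p = 0.0246 and 0.0267), summing to 686 to 906 CPM against 517 to 591 CPM. The part of proliferation or of these marker genes in the differences of the listed genes was not tested. In bulk samples, fewer cells of a type and less RNA per cell cannot be told apart.

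The second comparison asks whether these genes differ between the innermost and the outermost region of the spheroid. The study could not microdissect the intermediate region for technical reasons, so it was not measured. The internal samples had 4.07-fold less *Etv4*, 2.27-fold less *Etv5* and 4.32-fold less *Dusp4* than the external samples, and 1.75-fold more *Fgfr1*. The other 5 genes, *Spry1*, *Spry2*, *Spred1*, *Dusp6* and *Fgfr2*, did not pass the test. The plot of CPM by region sample shows the values that follow.

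**Figure D2:**
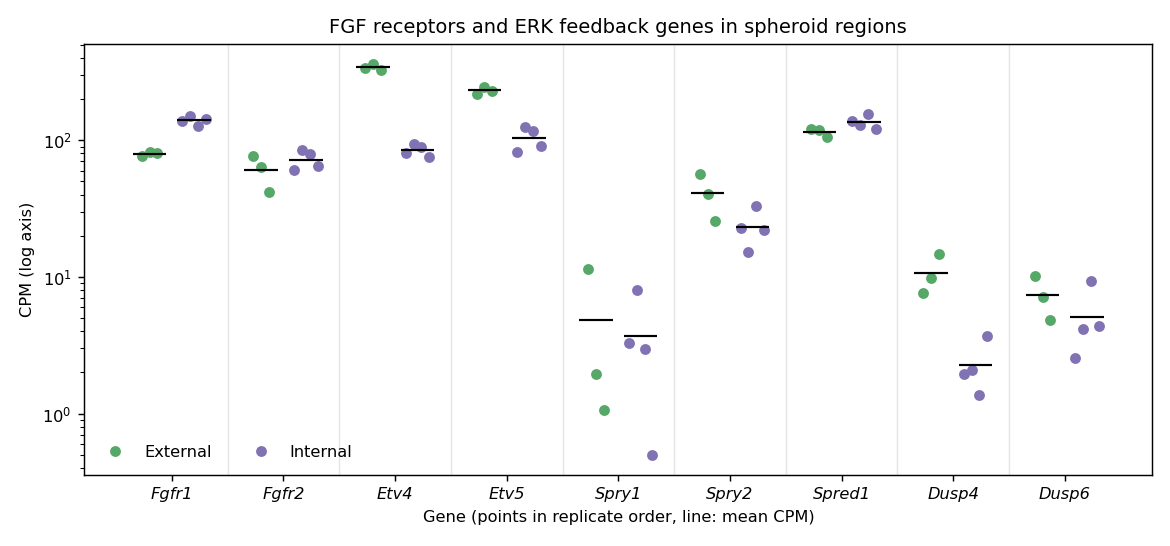
CPM (log axis) of the 9 genes in the 3 external (green) and 4 internal (purple) samples, with points in replicate order and a line at the mean CPM. Etv4, Etv5 and Dusp4 are lower in every internal sample than in any external sample, and Fgfr1 is higher, whereas Spry1 ranges from 0.496 to 11.5 CPM and overlaps.

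Of the receptors, *Fgfr1* had 76.9, 81.8 and 80.2 CPM in the external replicates 1 to 3 and 138, 151, 127 and 143 CPM in the internal replicates 1 to 4. Both groups were tight, and every internal sample was higher. This made a log2 fold change of 0.81 ± 0.16 (SE; interval 0.48 to 1.13; adjusted p = 0.000539, limma), and the adjusted p was at most 0.00338 when any 1 sample was left out. The fold is under the 2-fold threshold for a call. *Fgfr2* had 76.2, 64.2 and 42.0 CPM in the external and 60.9, 84.3, 79.0 and 64.7 CPM in the internal samples. These groups overlapped, with a log2 fold change of 0.28 (interval -0.16 to 0.71, adjusted p = 0.387, limma).

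Of the PEA3 factors, *Etv4* had 339, 364 and 329 CPM in the external and 80.1, 94.1, 89.1 and 75.3 CPM in the internal samples. No external sample was under 329 CPM and no internal sample was over 94.1 CPM. In limma *Etv4* had a log2 fold change of -2.02 ± 0.15 (SE; interval -2.33 to -1.72; adjusted p = 1.51e-09). *Etv5* had 219, 247 and 230 CPM in the external and 82.0, 124, 117 and 90.5 CPM in the internal samples. Again no sample of one region overlapped the other, and the log2 fold change was -1.18 ± 0.17 (SE; interval -1.53 to -0.84; adjusted p = 1.34e-05, limma). Both genes were called in all 7 fits that left out a sample, with log2 fold changes of -2.08 to -1.97 and -1.28 to -1.08. Without the variance trend in limma, the adjusted p of *Etv5* was 0.0125.

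Of the phosphatases, *Dusp4* had 7.58, 9.79 and 14.7 CPM in the external and 1.95, 2.08, 1.37 and 3.72 CPM in the internal samples. All internal samples were lower, but the values rest on 45 to 55 reads in the external and 6 to 45 in the internal samples. Its log2 fold change was -2.11 ± 0.56 (SE; interval -3.28 to -0.95; adjusted p = 0.00834, limma). The adjusted p stayed under 0.01 without the internal replicate 4 (0.00567). It was 0.0172, 0.0159 and 0.0162 without the internal replicates 1, 2 and 3, and 0.0151, 0.0365 and 0.0725 without the external replicates 1, 2 and 3. With the totals-only scaling it was 0.0119 and with voom 0.0241, so the call holds at 0.05 rather than at 0.01 in most of these fits. *Dusp6*, with 10.2, 7.18 and 4.81 CPM in the external and 2.55, 4.16, 9.39 and 4.38 CPM in the internal samples, overlapped between regions (log2 fold change -0.59, interval -1.69 to 0.51, adjusted p = 0.471, limma).

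Of the Sprouty family, *Spry2* had 56.2, 40.7 and 25.7 CPM in the external and 22.9, 15.2, 33.0 and 22.1 CPM in the internal samples. The groups overlapped through the internal replicate 3 and the external replicate 3. The log2 fold change was -0.78 ± 0.30 (SE; interval -1.40 to -0.17; adjusted p = 0.064, limma). When each sample was left out, the adjusted p ranged from 0.0205 to 0.3 and the log2 fold change from -1.08 to -0.52. It was under 0.05 without the internal replicate 3 (0.0271) or the external replicate 3 (0.0205) and with voom (0.0255), and it was highest without the external replicate 1. With totals-only scaling it was 0.114. *Spry1* was spread widely in both regions, with 11.5, 1.96 and 1.07 CPM in the external and 3.30, 8.08, 2.98 and 0.496 CPM in the internal samples, and its interval of -1.87 to 1.56 (adjusted p = 0.92, limma) gives no direction. *Spred1* had 121, 118 and 106 CPM in the external and 138, 129, 156 and 121 CPM in the internal samples, which met at 121 CPM, for a log2 fold change of 0.24 (interval -0.09 to 0.56, adjusted p = 0.304, limma).

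**Figure D3:**
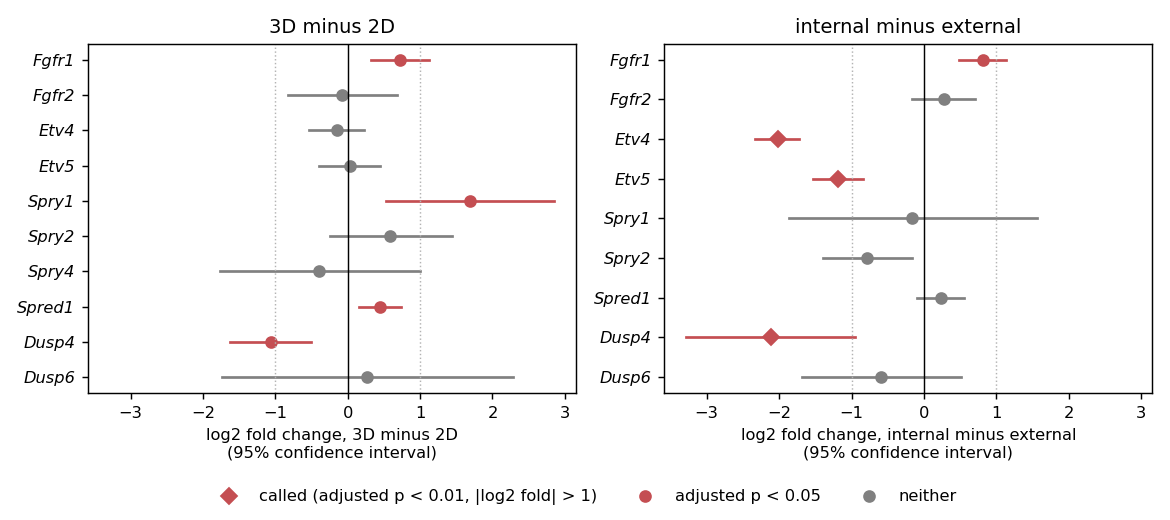
Log2 fold change with its 95% confidence interval for the listed genes, 3D minus 2D (left, 10 genes) and internal minus external (right, 9 genes). Diamonds mark calls, red circles an adjusted p under 0.05 and grey circles neither. Etv4, Etv5 and Dusp4 are called on the right, at -2.02, -1.18 and -2.11, and no gene is called on the left.

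In all, 3 of the 9 genes were called lower in the internal samples, where 4.35% of all genes were, and none was called higher (3.27% of all genes), out of 7.62% called in either direction. At an adjusted p under 0.05, passed by 21.7% of all genes, 3 fell (12.1%) and 1 rose (9.58%). The groups did not overlap in 4 of the 9 genes, as in 29.0% of all genes. The median log2 fold change of the 9 genes was -0.59, beside 0.04 over all genes. With totals-only scaling the median of all genes was 0.15, the log2 fold changes of *Etv4*, *Etv5*, *Dusp4* and *Fgfr1* were -1.91, -1.07, -2.01 and 0.92, and 473 genes were called higher and 393 lower in place of 370 and 491.

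The proliferation markers separated the regions as well. Of 8, 7 were called lower in the internal samples. Their median was -4.00 on the log2 scale, and they summed to 37.5 to 77.9 CPM in the internal and 582 to 781 CPM in the external samples. *Aurkb* was the one not called. Among the 4 fiber markers measured, *Prox1*, *Maf* and *Hsf4* were called higher in the internal samples, and the list summed to 402 to 446 CPM against 145 to 183 CPM. Of the epithelial markers, *Pax6* was higher in the internal samples (adjusted p = 0.00601, limma) and *Six3* did not pass the test (adjusted p = 0.071), and they summed to 563 to 742 CPM against 424 to 559 CPM. The fibroblast list held 1 gene called in each direction and summed to 402 to 494 CPM in the internal and 219 to 586 CPM in the external samples. Their part in the differences of *Etv4*, *Etv5*, *Dusp4* and *Fgfr1* was not tested. External replicate 3, the shallowest library with 4044230 reads, had the lowest external value for 6 of the 9 genes (34.4% of all genes).

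Other genes of the pathway were counted from 7 lists of 122 genes in all. In the cultures 94 were tested, of which 7 were called higher and 3 lower in 3D, beside 2.92% and 1.51% of all genes. In the regions 91 were tested, of which 4 were called higher and 8 lower in the internal samples, beside 3.27% and 4.35% of all genes. The medians of all lists together were -0.01 and 0.12, beside -0.03 and 0.04 over all genes. The plot of fold changes by list shows how these are spread.

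**Figure D4:**
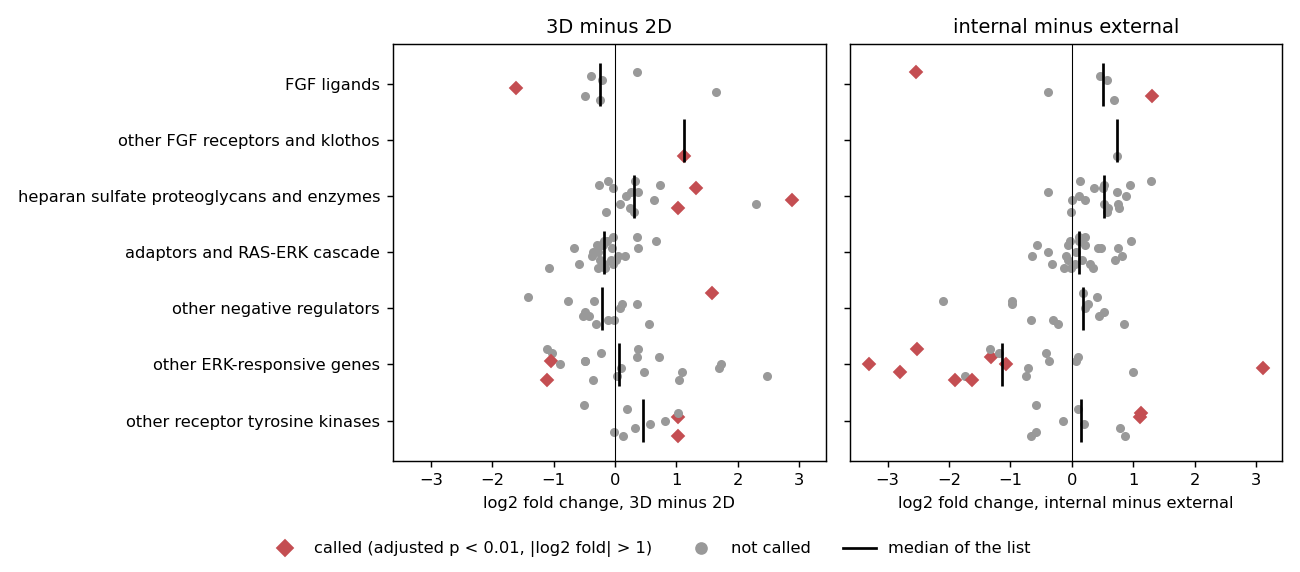
Log2 fold change of each tested gene of 7 pathway lists, 3D minus 2D (left) and internal minus external (right). Red diamonds mark called genes, grey circles genes not called and black lines the median of each list. The list of other ERK-responsive genes has its median at 0.07 on the left and at -1.13 on the right.

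Among 22 ligand genes, 7 were tested in the cultures and 6 in the regions. *Fgf7*, a ligand secreted by mesenchymal cells that acts on an epithelial form of *Fgfr2*, was called lower in both comparisons. It ranged from 14.3 to 31.7 CPM in 2D and from 4.21 to 8.80 CPM in 3D (log2 fold change -1.61 ± 0.30, SE; adjusted p = 0.00615, limma). In the regions it ranged from 8.05 to 18.3 CPM in the external and from 1.27 to 2.52 CPM in the internal samples (-2.54 ± 0.57, adjusted p = 0.00223), and the adjusted p was 0.0279 and 0.0132 without the external replicates 1 and 3. *Fgf13*, which belongs to the intracellular FGF homologous factors and not to the secreted ligands, was called higher in the internal samples, at 66.4 to 113 CPM against 28.5 to 40.4 CPM (log2 fold change 1.30 ± 0.21, adjusted p = 9.05e-05). Of the other receptors and klothos, *Fgfrl1* was the 1 gene tested of 5. It encodes a receptor-like protein without a kinase domain and was called higher in 3D, at 59.1 to 82.6 CPM against 23.6 to 46.0 CPM (log2 fold change 1.13 ± 0.22, adjusted p = 0.0071). In the regions it was not called, but it was higher in the internal samples at an adjusted p under 0.05 in limma. It had 39.3 to 61.8 CPM there against 21.9 to 44.2 CPM in the external samples, with overlap (log2 fold change 0.74).

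The heparan sulfate proteoglycans present FGF to its receptors. Of 17 tested genes of this group in the cultures, 3 were called higher in 3D (2.92% of all genes) and none was called lower (1.51%). The median was 0.31, beside -0.03 over all genes. The syndecan *Sdc2* ranged from 390 to 613 CPM in 3D and from 176 to 214 CPM in 2D (log2 fold change 1.32 ± 0.17, adjusted p = 0.00132, limma). The glypican *Gpc1* ranged from 354 to 633 CPM against 236 to 259 CPM (1.02 ± 0.17, adjusted p = 0.00343). *Sulf1*, an extracellular enzyme that removes sulfate from heparan sulfate, had 27 to 63 reads in 3D and 1 to 8 in 2D (2.88 ± 0.49, adjusted p = 0.00383), a fold change that depends on the prior count of the deposited values. In the regions 0 of 18 were called in limma or with voom, although 11 had an unadjusted p under 0.05 (33.6% of all genes). At an adjusted p under 0.05, 5 were higher in the internal samples (9.58% of all genes), *Sdc2*, *Gpc1*, *Gpc6*, *Ext1* and *Ext2*. These 5 were named after their values were seen.

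The adaptors and the kinases of the RAS-ERK cascade itself held 25 tested genes in each comparison, and none was called in limma or with voom. At an unadjusted p under 0.05 there were 4 in the cultures, where 33.7% of all genes were, and 7 in the regions (33.6% of all genes). At an adjusted p under 0.05, *Mapk3*, which encodes ERK1, was higher and the scaffold *Ksr1* lower in 3D (0.66 ± 0.19 and -0.66 ± 0.14 on the log2 scale, adjusted p = 0.0337 and 0.0116). In the regions the RAS exchange factor *Sos1* was higher (0.96 ± 0.30, adjusted p = 0.0214) and *Nras* and *Map2k2*, a MEK gene, were lower in the internal samples (-0.65 ± 0.17 and -0.56 ± 0.16, adjusted p = 0.00602 and 0.0104). These 5 genes were chosen after their values were seen.

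Of 14 other negative regulators tested in the cultures, *Il17rd*, a membrane inhibitor of FGF signals also called Sef, was called higher in 3D, at 31.8 to 39.4 CPM against 6.21 to 21.9 CPM (log2 fold change 1.58 ± 0.33, adjusted p = 0.00958, limma). With totals-only scaling its adjusted p was 0.0108. In the regions none of 13 was called in limma, 5 had an unadjusted p under 0.05 (33.6% of all genes), and voom called 2. Among them at an adjusted p under 0.05, *Dusp5*, a nuclear ERK phosphatase, was lower in the internal samples, at 0.924 to 3.15 CPM against 5.61 to 14.4 CPM (-2.10 ± 0.59, adjusted p = 0.0116), as were *Spred3* and *Rasa1*, whereas *Il17rd* was higher (0.52 ± 0.18, adjusted p = 0.0392). *Dusp5*, *Spred3* and *Rasa1*, and *Il17rd* in the regions, were named after their values were seen.

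The list of other ERK-responsive genes, transcripts that growth factors induce through ERK in many cell types, held 18 tested genes in the regions, of which 7 were called lower and 1 higher in the internal samples, beside 4.35% and 3.27% of all genes. The AP-1 gene *Fosl1* had the largest difference of those called lower, at 76.7 to 121 CPM in the external and 4.80 to 29.1 CPM in the internal samples (log2 fold change -3.30 ± 0.40, adjusted p = 1.94e-06, limma). The EGF receptor ligands *Ereg* and *Hbegf* differed by -2.80 ± 0.27 (adjusted p = 1.12e-07) and -1.63 ± 0.14 (adjusted p = 2.81e-08). *Plaur*, the urokinase receptor, and *Ccnd1*, which encodes cyclin D1, differed by -2.52 ± 0.27 (adjusted p = 5.03e-07) and -1.91 ± 0.17 (adjusted p = 1.76e-08). In these 5 genes, picked by fold change among those called, no internal sample reached the lowest external one. The same held for 9 of the 18 tested genes and for 15.4% of all genes. All 5 stayed called when any 1 sample was left out. Without the variance trend in limma, the adjusted p of *Fosl1* was 0.0132. *Epha2* and *Trib1*, outside the rule for naming, were the other 2 called lower.

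*Fos*, the immediate early gene, went the other way, with 3.43 to 13.6 CPM in the internal and at most 1.65 CPM in the external samples, of which replicate 2 had 0 reads (log2 fold change 3.11 ± 0.73, adjusted p = 0.00322, limma). The size of this difference rests on few reads: it was 2.22 without the external replicate 2 and 3.85 with a prior count of 0.5. Its adjusted p was 0.0692 with voom, and it was 0.0211, 0.0123 and 0.0153 without the internal replicates 1, 2 and 4 and 0.0232 without the external replicate 2. *Ccnd1* also belongs to the cell cycle, and 7 of the 8 proliferation markers fell in the same samples, and their part in its difference was not tested. In the cultures 2 of 20 tested genes of this list were called, both lower in 3D (1.51% of all genes). *Plaur* ranged from 26.0 to 35.8 CPM in 3D and from 59.1 to 72.5 CPM in 2D (-1.11 ± 0.16, adjusted p = 0.00174), and *Fosl1* from 60.6 to 137 CPM and from 180 to 214 CPM (-1.05 ± 0.21, adjusted p = 0.00855).

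Other receptor tyrosine kinases that feed the same cascade gave 10 tested genes in each comparison. In each, 2 were called higher (2.92% of all genes in the cultures, 3.27% in the regions) and none lower. At an adjusted p under 0.05, 3 were higher and 2 lower in the internal samples (9.58% and 12.1% of all genes). The list summed to 1874 to 2101 CPM in the internal and 2426 to 2613 CPM in the external samples. *Ddr1*, a collagen receptor, was called higher in both comparisons. On the log2 scale it differed by 1.03 ± 0.15 in 3D (adjusted p = 0.0021, limma) and by 1.11 ± 0.18 in the internal samples (adjusted p = 7.45e-05). Without the variance trend its adjusted p in the regions was 0.0124. *Pdgfrb*, a receptor for platelet-derived growth factor, was called higher in 3D (1.03 ± 0.19, adjusted p = 0.00526). *Egfr*, the receptor for the ligands that *Ereg* and *Hbegf* encode, was called higher in the internal samples, at 31.6 to 52.8 CPM against 12.6 to 23.9 CPM (1.13 ± 0.28, adjusted p = 0.00483). Without the external replicate 3 its log2 fold change was 0.86 (adjusted p = 0.0403), and without the internal replicates 2 and 4 its adjusted p was 0.0249 and 0.0185.

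Most of the pathway calls between 3D and 2D lay close to the call thresholds. When 1 sample was left out, *Sdc2* and *Plaur* stayed called in all 8 fits, and the other 8 called genes kept an adjusted p under 0.05 in all 8 but lost the call in some. *Fgf7* stayed called only without the 2D replicate 2 (adjusted p up to 0.0199 in the others), and *Pdgfrb* only without the 2D replicate 3 (up to 0.0236). *Fgfrl1* stayed called only without the 2D replicates 2 or 3 (up to 0.0296), *Il17rd* only without the 2D replicates 1 or 2 (up to 0.032), and *Fosl1* only without the replicate 2 of either group (up to 0.0291). *Sulf1* lost its call without the 3D replicates 2, 3 or 4 (up to 0.0201), and *Gpc1* without the 2D replicates 1 or 3 or the 3D replicates 2, 3 or 4 (up to 0.0167). *Ddr1* lost its call without the 2D replicate 1 or the 3D replicates 3 or 4 (up to 0.0118). With totals-only scaling the log2 fold changes of *Pdgfrb*, *Ddr1* and *Gpc1* were 0.99, 0.99 and 0.97, just under the threshold of 1.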

How the data were processed

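RNA of 15 samples was sequenced with a QuantSeq 3′ kit. The authors kept sense reads, aligned them (STAR 2.7.8a, GRCm38.p6), assigned those that mapped uniquely to genes (featureCounts 1.6.0) and removed genes under 0.2 CPM. The annotation release is not given in the sources used here. They deposited log2 CPM per sample in 2 tables, with a prior of about 2 reads, and their own fold changes, p-values and adjusted p-values, which were not used. In the fold changes, this prior understates the change of genes with few reads.

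Whole reads were recovered from the log2 values for 100% of them (within 0.05 reads). CPM values are these reads over the authors' scaled library sizes. Depth and its limits are given with the samples.

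Groups follow the labels. Differences were tested on the log2 values, within a table, with limma 3.58.1 in R 4.3.3 (linear model, empirical Bayes moderation with a variance trend, two-sided, Benjamini-Hochberg adjustment over all genes of the table). Calls needed an adjusted p below 0.01 and a log2 fold change beyond 1 in either direction, and genes were described as higher or lower also at an adjusted p under 0.05. The scripts were tested on simulated data. Besides the listed genes, up to 6 called genes per pathway list and comparison, by fold change, were named, with the exceptions stated. The members and all lists were chosen with earlier results of these data known. Positions are from GENCODE release 21 for mouse on GRCm38 (11676 of 11677 and 11298 of 11299 Ensembl IDs matched), and promoter windows from RefSeq GRCm38.p6. The other computations used Python 3.11.15, numpy 2.4.6, pandas 2.3.3 and matplotlib 3.10.9.

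Alternatives tried were a fit without the variance trend or with a robust prior, a replicate block, other scalings, a prior count of 0.5, a minimum mean of 1 log2 CPM, other thresholds, voom and leaving out samples.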

Additional observations from a re-analysis of the deposited data

Results flagged for a closer look

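In 4 cases 1 sample lay far from the rest of its group of 4 by Dixon's criterion. It was applied to 59 gene and group combinations with 4 samples, and chance alone marks about 1 in 20 groups. In the 3D replicate 2, *Spry2* had 52.8 CPM against 73.1 to 78.1 CPM in the other 3D samples, *Dusp6* had 8.89 CPM (72 reads) against 59.3 to 62.6 CPM, and *Fgfr2* had 47.0 CPM against 77.3 to 84.0 CPM. The 3 genes had their lowest 2D value in the 2D replicate 2 as well. In the internal replicate 3, *Ereg* had 29.3 CPM against 12.7 to 13.7 CPM in the other internal samples, a value still below the 97.8 CPM of the lowest external sample.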

How the results depend on the processing

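In the cultures, of 17 settings tried, *Spry1* was at an adjusted p of 0.05 or above in 12, *Spred1* in 8, *Fgfr1* in 2 and *Dusp4* in 0. In the regions, of 16 settings, *Dusp4* was so in 1, and *Etv4*, *Etv5* and *Fgfr1* in 0. The pathway genes named by the rule stayed under 0.05 in 170 of 170 fits in the cultures and 159 of 160 in the regions. They were picked as called in the main fit of the same samples, so this count does not compare with that of the listed genes. The other pathway genes named are not part of this count. Among 9 genes in the cultures, 2 were called at an adjusted p under 0.05 with the fold threshold and 4 without it. At the thresholds of a call there were 0 to 1 when 1 sample was left out, the 1 being *Dusp4* without the 2D replicate 1. Those at an adjusted p under 0.05 were 2 without the variance trend, 2 with totals-only scaling and 1 to 3 when a sample was left out. Called genes in all numbered 978 and 2217 at these thresholds and 161 to 770 with a sample left out (161 without the 3D replicate 3, 177 without the 3D replicate 4, 271 without the 3D replicate 1 and 296 without the 2D replicate 4). Called pathway genes numbered 4 without the trend, 6 with totals-only scaling, 21 at an adjusted p under 0.05 and 2 to 11 with a sample left out.

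In the regions, 324 genes, 1 of the 9 genes (*Etv4*) and 5 pathway genes were called without the trend. At an adjusted p under 0.05 there were 2453 genes and 31 pathway genes. With a sample left out, 649 to 850 genes, 2 to 3 of the 9 and 10 to 14 pathway genes were called. Directions turned only in genes that did not pass the test in the comparison concerned. The log2 fold change of *Etv5* between cultures was -0.01 with totals-only scaling and -0.11 to 0.22 with a sample left out. Those of *Spry4*, *Dusp6* and *Fgfr2* ranged from -0.76 to 0.09, from -0.57 to 1.02 and from -0.43 to 0.18. That of *Spry1* between regions ranged from -0.79 to 0.76. The causes were not tested.

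The replicate numbers were not taken as pairs, since not every same-number correlation of the deviations was over 0.1. In the cultures these were 0.227, 0.503, 0.0661 and 0.00521 for the replicates 1 to 4, and those of other pairs ran from -0.33 to 0.188. In the regions they were -0.065 to -0.044. With a replicate block, 602 genes and 0 of the 9 were called in the cultures. There the adjusted p in limma was 0.0183 for *Fgfr1*, 0.0285 for *Spry1*, 0.0297 for *Spred1* and 0.0111 for *Dusp4*. In the regions 665 genes were called with the block, which used the 6 samples that share numbers. In these 6 samples without the block, 774 genes and 3 of the 9 were called. The block left 2 of the 9, ending the call of *Dusp4* (adjusted p = 0.0158, and 0.00567 without it). *Spry1* had a log2 fold change of 0.48 both ways. The edgeR and DESeq2 alternatives were not run, and voom on the recovered reads took their place. This fit, median-ratio scaling, leaving out the samples numbered 2 and the fit of the 6 samples without the block were not planned before the data were seen. Depth limits the genes with few reads. In the cultures *Spry1* and *Spry4* had 9 to 154 and 4 to 65 reads. In the regions *Spry1*, *Dusp4* and *Dusp6* had 4 to 70, 6 to 55 and 17 to 62 reads.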
